A study of Bos taurus with 3 samples.

Results

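The comparison of the −7 d library with the −35 d library covered stage I of lactogenesis, the step from the dry mammary gland to the last week before calving. Every gene with at least 1 tag in either library was taken, which gave 8967 of the 9154 genes counted in the series. Both libraries held tags of 8058 genes, while 604 genes had tags only at −35 d (median 3 tags) and 305 only at −7 d (median 2 tags). The tissue was mammary gland of Holstein cows in second parity, sampled by biopsy on day −35 (dry) or day −7 (pre-colostrum secretion) relative to parturition. Tissue of 6 cows was pooled at each time point, and 1 digital gene expression (DGE) library was made from each pool. The cows of the 2 pools were different animals, and none of them carried a treatment or an allele named in the labels. With 1 library per time point there was no replicate check, so every test below compared libraries and not conditions, and the spread among cows did not enter it.

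Lactogenesis is the process by which the mammary epithelium acquires the ability to make milk. Toward the end of pregnancy the alveolar cells multiply and differentiate, casein and whey protein genes are switched on under prolactin, glucocorticoids and insulin, and enzymes for milk fat and lactose are assembled. The dry gland before that step holds resting epithelium, abundant connective tissue and leukocytes, and a secretion rich in lactoferrin and other defence proteins.

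In DGE, each transcript is counted by a tag of 21 bases: the NlaIII site CATG and the 17 bases after it. A transcript gives about 1 tag whatever its length, and levels are given as TPM, the tags of a gene scaled to an equal total of clean tags. The 6 tags with the largest gains and losses in TPM are printed because they carried much of the change in the libraries. The site is in capitals, and the tag files do not pair tags with genes, so the tags are not named.
Gain 1: CATGcacatccggctgtcctt
Gain 2: CATGctggtataaaggccact
Gain 3: CATGaacatatcaaaatatgt
Loss 1: CATGtcactatgatcttttgt
Loss 2: CATGtagaagcaaacaaaata
Loss 3: CATGccactaactcaataaac
Gain 1 had 3310 copies at −35 d and 68500 at −7 d. Gain 2 had 2668 and 53108 copies, and gain 3 had 1013 and 34589. Their log2 ratios were 4.45, 4.40 and 5.17, and no test was run on single tags. Loss 1 had 23163 copies at −35 d and 3459 at −7 d, loss 2 had 18426 and 1308, and loss 3 had 24007 and 9386.

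The −35 d library held 5914422 clean tags, of which 40.5% lay on genes, and the −7 d library held 5593237, of which 41.4% lay on genes. A count of 3 tags, below which no fold is given here, was 0.507 TPM at −35 d and 0.536 TPM at −7 d. The tissue label was checked against markers. The epithelial genes KRT7, EPCAM and ELF5 had 2071, 2944 and 1604 tags at −35 d and 1382, 1639 and 1974 at −7 d, so both libraries held mammary epithelium. Haemoglobin beta (HBB) had 2 tags and 0 tags, so little red cell RNA was present. Fewer cells of a type and less RNA per cell cannot be told apart in such tissue pools.

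Genes were compared by the Audic-Claverie test, which asks whether 2 tag counts differ by more than Poisson counting error, with Benjamini-Hochberg adjustment over all 8967 genes. A gene was called at an FDR of at most 0.001 and at least a 2-fold difference. Scaled to clean tags, 813 genes were called, 235 higher at −7 d (2.62% of all genes) and 578 lower (6.45%). Scaled by TMM, which aligns the bulk of the genes, 728 genes were called, 378 higher (4.22%) and 350 lower (3.9%). The share of lower calls was therefore 71.1% with clean tags and 48.1% with TMM. Both scalings called 585 genes, 235 higher and 350 lower. These calls rest on counting error alone: where a coefficient of variation of 0.2 among samples was assumed, edgeR's exact test called 54 genes, among them 5 of the 6 milk protein genes, FASN, SCD, PLIN2, SPP1 and CFI. TMM added 0.19 to every log2 ratio. A shift of that size cannot reverse a 2-fold difference, so no gene could be called in opposite directions by the 2 scalings. The median log2 ratio of all genes was −0.21 with clean tags and −0.02 with TMM. Log2 ratios below are −7 d over −35 d scaled to clean tags, with 95% exact counting intervals in parentheses. "Rose" and "fell" are used of genes called under both scalings. Calls lost under TMM are marked as such where they are given, and some are not given. Intervals cover counting error only, since copies made by PCR need not stand for separate transcripts.

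**Figure D1:**
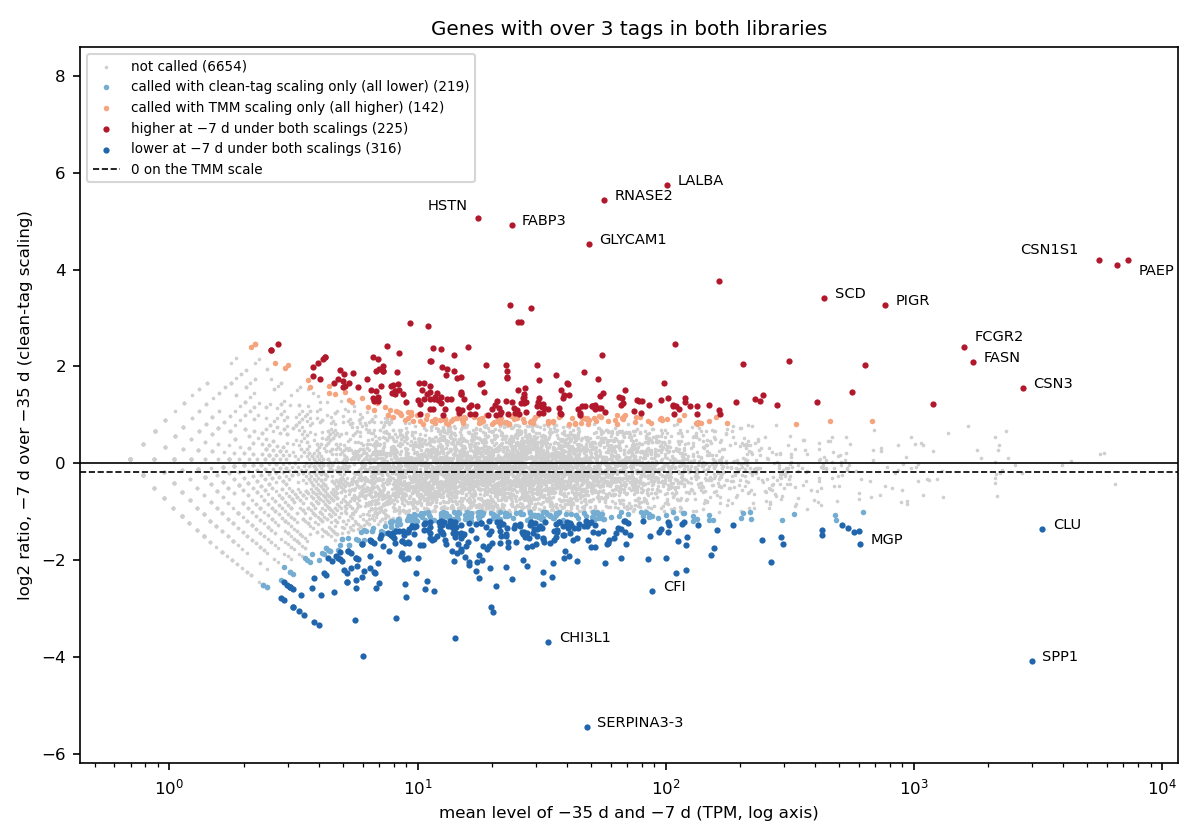
Log2 ratio of −7 d over −35 d (y axis, clean-tag scaling) against the mean level of the 2 libraries in TPM (x axis, log scale) for each gene with over 3 tags in both; red and dark blue points were called under both scalings, pale points under 1 of them, and the dashed line marks 0 on the TMM scale. The milk protein genes LALBA, CSN1S1 and PAEP stand at the top and SPP1 and SERPINA3-3 at the bottom, and the scatter widens toward low levels, where counting error is larger.

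The size of the counts set what could be seen. Among 1361 genes at or under a mean of 1 TPM none was called, and the median width of the counting interval there was 4.34 on the log2 scale. Among 678 genes above 100 TPM, 36 were called higher and 49 lower, and the median width was 0.266. For 3992 of all genes, or 44.5%, the whole interval lay inside a 2-fold difference, so that these genes differed by less than 2-fold between the libraries as far as counting error goes.

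Genes were grouped into 65 lists by function or cell type. Called members of a list are to be read against all genes, of which 2.62% rose and 3.9% fell. Of 6 casein and major whey protein genes all rose, and the genes of spindle, kinetochore and cytokinesis had the next highest median, 0.99 over 57 genes. Among the lowest medians were those of integrins (−1.23 over 16 genes), complement (−1.11 over 27), macrophage markers (−1.02 over 12), NADPH oxidase and phagocytic receptors (−0.98 over 22) and matrix proteases (−0.89 over 21), leaving out a list of 3 erythrocyte genes that held at most 10 tags each. The order among these 5 lists was not stable: with 2 tags added the integrin median was −0.92, above that of complement (−1.04), and with a minimum mean of 5 TPM the medians of Wnt signalling (−0.85) and MHC class II (−0.84) were below those of macrophage markers (−0.79) and matrix proteases (−0.66). Of the 16 integrins 6 had at most 3 tags in a library. List medians add 0.5 tags to every count and include every member with a tag in either library. TMM changed the sign of 12 of the 65 medians, each of which was below 0 by less than the TMM shift.

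**Figure D2:**
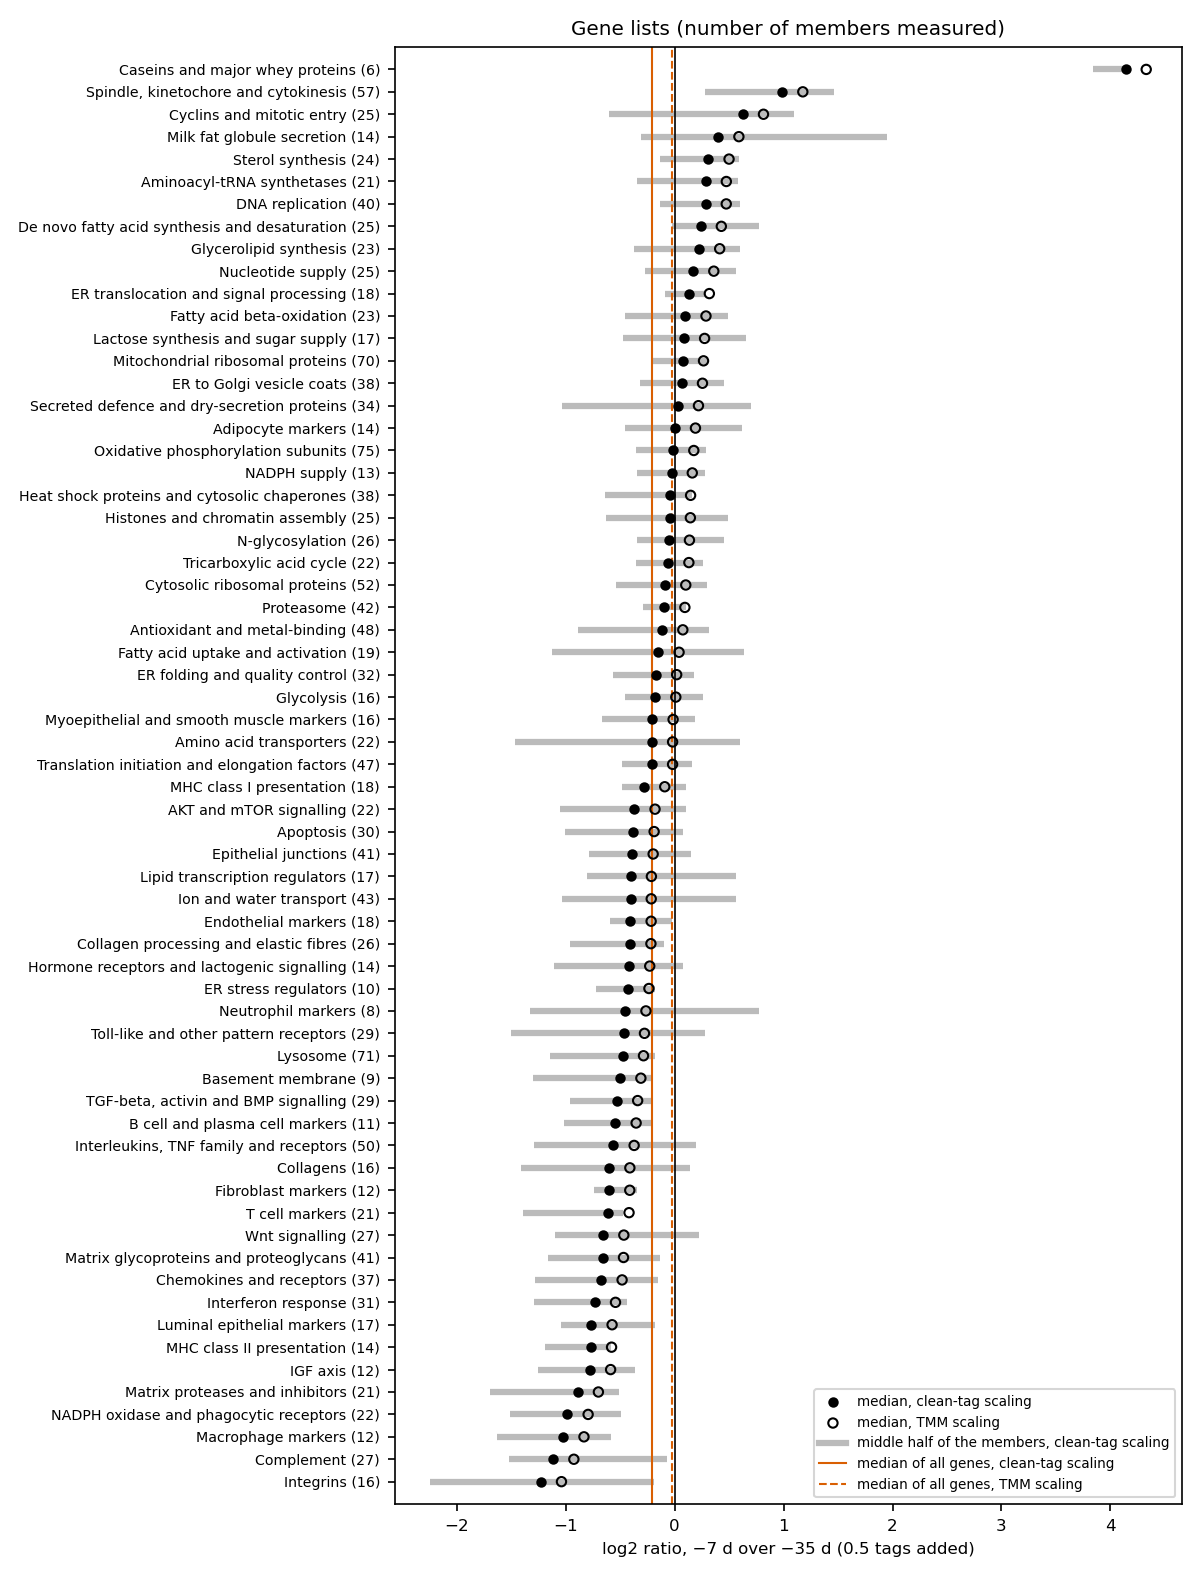
Median log2 ratio of −7 d over −35 d (x axis) of each gene list with more than 3 members measured (y axis, number of members in brackets); filled points give clean-tag scaling, open points TMM scaling, grey bars the range between the quartiles of the members, and orange lines the median of all genes. Milk proteins (4.14) and spindle genes (0.99) lie far to the right and integrins (−1.23) and complement (−1.11) far to the left.

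Genes of milk proteins rose most. Their summed level went from 3488 TPM at −35 d to 41525 TPM at −7 d, or from 0.349% to 4.15% of the clean tags, and made up 43.8% of all TPM gained by any gene. Alpha-lactalbumin (LALBA), the regulatory subunit of lactose synthase, had 22 tags at −35 d and 1111 at −7 d, a log2 ratio of 5.74 (5.13 to 6.42). The calcium-binding caseins CSN1S1, CSN2 and CSN1S2 had 579, 735 and 22.5 TPM at −35 d and 10599, 12496 and 304 TPM at −7 d. Their log2 ratios were 4.19, 4.09 and 3.76. Beta-lactoglobulin (PAEP), the main whey protein of cows, was at 757 and 13817 TPM, a log2 ratio of 4.19 (4.15 to 4.23). Kappa-casein (CSN3), which keeps the micelle in solution, rose less, from 1391 to 4109 TPM with a log2 ratio of 1.56 (1.53 to 1.60). Its interval lay below those of the other 5 genes, and it was already the most abundant of the 6 in the dry gland. Histatherin (HSTN), a secreted milk protein outside the list, had 6 and 190 tags, a log2 ratio of 5.07 (3.92 to 6.53).

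Other secreted proteins moved in both directions. Of 34 genes of defence and dry secretion, 6 rose (17.6%, against 2.62% of all genes) and 6 fell (17.6%, against 3.9%). MUC1 and RNASE6 were called lower only with clean tags. The polymeric immunoglobulin receptor (PIGR), which carries IgA into milk, had 855 and 7772 tags, a log2 ratio of 3.26 (3.16 to 3.37). The mucin-like GLYCAM1 had 24 and 527 tags (log2 ratio 4.54). The secreted ribonucleases RNASE2 and RNASE1 rose from 2.54 to 110 TPM and from 19.4 to 61.0 TPM. The peptidoglycan recognition protein PGLYRP1 rose from 13.2 to 32.2 TPM. Osteopontin (SPP1), a phosphoprotein of bone, milk and inflamed tissue, was the gene that lost most TPM, with 33341 and 1864 tags, a log2 ratio of −4.08 (−4.15 to −4.01). The extracellular chaperone clusterin (CLU) fell from 4744 to 1858 TPM (log2 ratio −1.35), and these 2 genes made up 10.4% of all TPM lost. WFDC2, haptoglobin (HP), lysozyme (LYZ) and the protease inhibitor CST6 also fell, with log2 ratios of −2.21, −2.12, −1.24 and −2.83. Lactoferrin (LTF), the iron-binding protein of dry secretion, had 2650 and 1666 TPM and was not called (log2 ratio −0.67), and beta-2-microglobulin (B2M) had 4209 and 4366 TPM (log2 ratio 0.05, 0.03 to 0.08).

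Milk fat leaves the cell as droplets wrapped in plasma membrane, and 6 of 14 genes of that step rose (42.9%, against 2.62% of all genes). Butyrophilin (BTN1A1) and xanthine dehydrogenase (XDH), which link droplet and membrane, had 26 and 1771 tags at −35 d and 238 and 4626 at −7 d. Their log2 ratios were 3.27 (2.69 to 3.92) and 1.47 (1.39 to 1.55). The droplet coat protein perilipin 2 (PLIN2) rose from 118 to 509 TPM (log2 ratio 2.11). FABP3, the fatty acid carrier of lactating epithelium, had 9 and 259 tags, a log2 ratio of 4.93 (3.98 to 6.07). Lactadherin (MFGE8) and CIDEA, which acts in droplet fusion, rose with log2 ratios of 1.28 and 2.34, the second from 5 tags. MUC1 and the fatty acid translocase CD36 were lower with clean tags only, with log2 ratios of −1.09 and −1.02.

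Of 25 genes of fatty acid synthesis and desaturation 4 rose (16%, against 2.62% of all genes). Ratios were above 0 for 18 of the 25 with clean tags and for 20 with TMM. The median of the list was 0.24 with clean tags, against −0.21 for all genes. Fatty acid synthase (FASN) had 3906 and 15686 tags, a log2 ratio of 2.09 (2.04 to 2.14), and stearoyl-CoA desaturase (SCD) 442 and 4454, a log2 ratio of 3.41 (3.27 to 3.56). ACSS2, which activates acetate, the main carbon source for milk fat in ruminants, rose from 30.3 to 78.8 TPM. THRSP, a lipogenic cofactor, rose from 19.6 to 61.0 TPM. These were the only 4 of 25 genes of the list called with clean tags, and TMM added TECR and FADS2. ATP-citrate lyase (ACLY) had 134 and 152 tags, and acetyl-CoA carboxylase (ACACA), which makes malonyl-CoA, had 11 and 14 tags, too few for a 2-fold difference to be detectable. Of 19 genes of fatty acid uptake and activation 3 rose (15.8%, against 2.62% of all genes). They were FABP3, the acyl-CoA binding protein DBI (log2 ratio 1.11) and the transporter SLC27A6 (1.91). CD36 and FABP5 were lower with clean tags only. Lipoprotein lipase (LPL), which frees fatty acids from plasma lipids, had 208 and 214 tags and was not called.

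Triacylglycerol and sterol enzymes followed with smaller ratios. Both enzymes of the last acylation, DGAT1 and DGAT2, rose, with 86 and 72 tags at −35 d and 220 and 165 at −7 d (log2 ratios 1.44 and 1.28). GPAM, the first acyltransferase of the path, had 77.3 and 114 TPM and was not called. Of 24 sterol genes 4 rose under both scalings (16.7%, against 2.62% of all genes) and none fell. Among the 4 were squalene epoxidase (SQLE, log2 ratio 1.26), FDPS (1.21) and HSD17B7 (1.31). Of 17 transcription regulators of lipid genes, SREBF1, the sterol-response factor of lipogenesis, and its retention factor INSIG1 rose from 58.0 to 147 TPM and from 40.2 to 94.9 TPM, as did THRSP. The oxysterol receptor NR1H3 fell from 75 to 27 tags (log2 ratio −1.39). PPARG had 17 and 24 tags, PPARGC1A had 4 and 9, and SREBF2 had 2 and 0, all near the limit of the counts.

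Of 17 genes of lactose synthesis and sugar supply 2 rose (11.8%, against 2.62% of all genes). They were LALBA and the galactosyltransferase B4GALT1, the 2 subunits of lactose synthase. B4GALT1 had 109 and 235 tags, a log2 ratio of 1.19 (0.86 to 1.53), against 5.74 for LALBA. The glucose transporter SLC2A1 had 205 and 306 tags (log2 ratio 0.66) and was not called, SLC2A8 was called with TMM only (0.94), and UGP2, which makes UDP-glucose, had 769 and 973 tags (0.42). UGDH, which draws UDP-glucose off to glucuronate, was lower with clean tags only (log2 ratio −1.16).

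**Figure D3:**
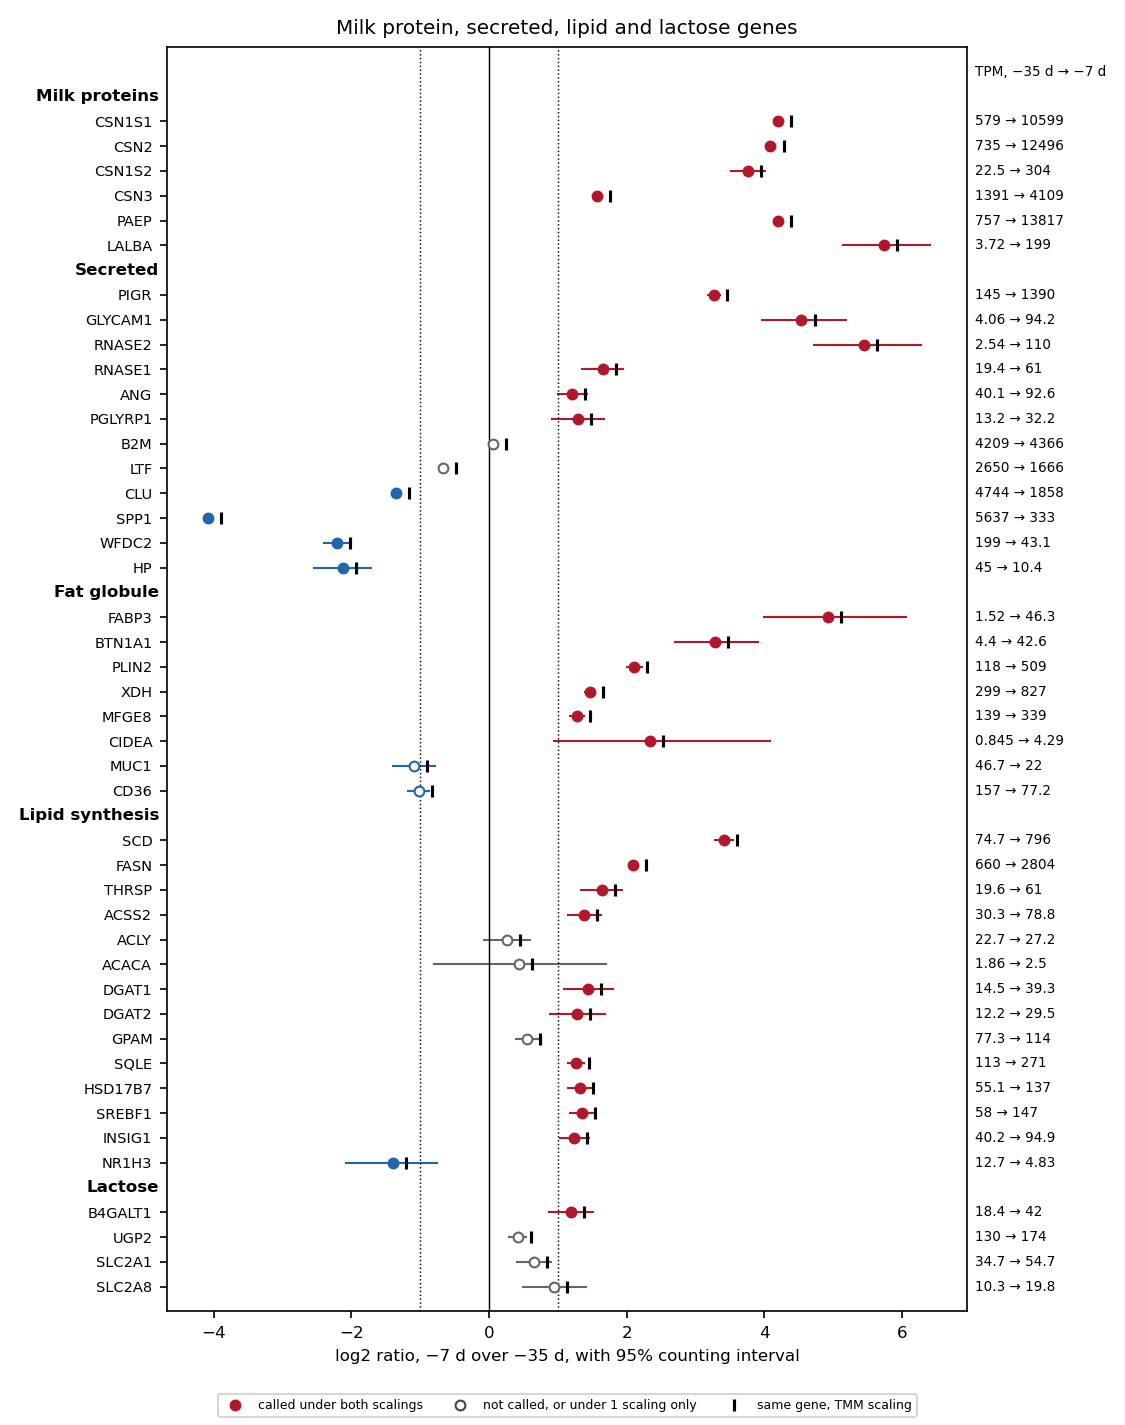
Log2 ratio of −7 d over −35 d (x axis) of milk protein, secreted, fat globule, lipid and lactose genes (y axis), with 95% counting intervals as lines and the TPM of both libraries at the right; filled points were called under both scalings (red higher, blue lower), open points were not, and black ticks give the same ratio under TMM. LALBA (5.74) and RNASE2 (5.44) lie furthest to the right and SPP1 (−4.08) furthest to the left.

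In energy metabolism, calls among subunits of oxidative phosphorylation were near the shares of all genes. Of 75 subunits, UQCRC2 rose (1.33%, against 2.62% of all genes), and COX7A2, COX5A, NDUFB8 and SDHC fell (5.33%, against 3.9%). For 56 of the 75, or 74.7%, the interval lay inside a 2-fold difference, against 44.5% of all genes. Intervals narrow as counts rise, and the list was not compared with genes of like level. The median was −0.01 with clean tags and 0.18 with TMM. COX7A2, a subunit of cytochrome c oxidase, had 314 and 63 tags, a log2 ratio of −2.24 (−2.65 to −1.84), while COX4I1 of the same complex had 2776 and 2916. In the tricarboxylic acid cycle 19 of 22 genes had intervals inside a 2-fold difference. Among 16 glycolytic genes the aldolase ALDOC alone was called, with 472 and 1842 tags, a log2 ratio of 2.04 (1.90 to 2.19), while ALDOA had 1070 and 1342 tags and ENO1 had 6331 and 4078. Of 13 genes of NADPH supply only RPIA was called, lower (89 and 36 tags), and the pentose phosphate enzymes TKT and TALDO1 had log2 ratios of 0.37 and 0.56. Of 23 genes of fatty acid oxidation ACOX2 rose (log2 ratio 1.13).

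Few genes of the secretory path were called. None of 32 genes of folding in the endoplasmic reticulum (ER), 26 of N-glycosylation and 10 ER stress regulators was called with clean tags. TMM called SDF2L1 and DDOST higher, the first of the folding list and the second of the glycosylation list. The chaperones HSPA5 and CALR had 1772 and 5151 tags at −35 d and 2336 and 6453 at −7 d (log2 ratios 0.48 and 0.41), and the stress factor XBP1 had 7 and 0 tags. In ER translocation 2 of 18 genes were lower with clean tags (11.1%, against 6.45% of all genes) and none under both scalings. Intervals lay inside a 2-fold difference for 15 of these 18 genes and for 39 of 42 proteasome genes. Vesicle coat genes held TMED9, a cargo receptor that rose (645 and 1243 tags), and ARF1, a coat GTPase that fell (31 and 5 tags), among 38.

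Ribosomal protein genes spread in both directions around a median of −0.09 with clean tags and 0.10 with TMM. Of 52 genes 2 rose (3.85%, against 2.62% of all genes), among them RPL22L1 (219 and 432 tags). RPS13, RPS3A, RPL3, RPL39 and RPL4 fell (9.62%, against 3.9%). RPL39 had 3711 and 1252 tags, whereas RPL13A and RPL10 were nearly level with 32238 and 35098 and with 31216 and 33670 tags. Ribosomal proteins have many near-identical copies in the genome, and tags that matched several genes were left out by the authors, so values of single ribosomal proteins are uncertain. Of 70 mitochondrial ribosomal proteins MRPS6, MRPL21 and MRPS30 rose (4.29%, against 2.62% of all genes). FARSA rose among 21 genes of tRNA charging (92 and 205 tags), and NARS was added by TMM. EIF4H fell among 47 translation factors (41 and 8 tags), and EIF4EBP1, an inhibitor of cap-dependent translation, was called higher with TMM only (319 and 582 tags). Of 22 amino acid transporters 1 rose (4.55%, against 2.62% of all genes) and 2 fell (9.09%, against 3.9%). SLC6A14, which takes up neutral and basic amino acids, rose (53 and 205 tags, log2 ratio 2.03). SLC3A2, the heavy chain shared by several exchangers, fell (433 and 137 tags, −1.58), as did the facilitative carrier SLC43A2 (80 and 21 tags, −1.85).

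Genes of cell division held a larger share of higher calls in the spindle list than in the others. Of 57 genes of spindle, kinetochore and cytokinesis, 15 rose under both scalings (26 with TMM alone) and none fell, against 2.62% of all genes called higher. The kinesin KIFC1 had 25 and 103 tags, a log2 ratio of 2.12 (1.48 to 2.82), and the spindle protein CCDC99 18 and 64. The checkpoint kinases BUB1 and TTK had 23 and 15 tags at −35 d and 66 and 43 at −7 d, both with a log2 ratio of 1.60. BIRC5 (survivin) and AURKB of the chromosomal passenger complex rose from 81 to 226 and from 38 to 98 tags, and UBE2C, a ubiquitin conjugase of mitotic exit, from 47 to 123. CDCA7, counted in this list though not itself a gene of spindle, kinetochore or cytokinesis, rose from 222 to 534 tags. Of 57 members, 47 had a ratio above 0 with clean tags and 50 with TMM, and the summed level of the list went from 542 to 923 TPM. None of the 57 was called with the assumed coefficient of variation of 0.2. The tubulin regulator STMN1, the most abundant member, had 642 and 881 tags and was not called. PTTG1, CDCA5, BUB1B and NEK2 had no tags at −35 d and at most 7 at −7 d, which is too few for a call.

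Genes of earlier cell cycle steps differed less. Of 25 cyclins and factors of mitotic entry, CCNE2 and the inhibitor CDKN2C rose (23 and 53, and 64 and 122 tags). That was 8%, against 2.62% of all genes, and CKS1B was lower with clean tags only (51 and 16). TMM added CDK1, CCNB1, CCNA2, MYBL2 and CDKN3, so that 7 of 25 were higher with TMM (28%, against 4.22%). The G1 cyclins CCND1, CCND2 and CCND3 had 47, 40 and 770 tags at −35 d and 25, 20 and 652 at −7 d, and were not called. Of 40 DNA replication genes CDC45 (94 and 212 tags), CHAF1A (57 and 115) and UHRF1 (119 and 232) rose (7.5%). With TMM 12.5% of the list was called higher. The helicase subunits MCM4 and MCM7 had log2 ratios of 0.65 and −0.14 and PCNA had one of 0.33, with none called. Among 25 genes of nucleotide supply 2 rose (8%). They were CTP synthase (CTPS, 119 and 413 tags, log2 ratio 1.88) and the nucleoside diphosphate kinase gene NME1-NME2 (197 and 1028 tags, 2.46). ADSL of purine synthesis fell (71 and 19 tags), and TYMS, which makes thymidylate, was lower with clean tags only (81 and 34 tags).

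**Figure D4:**
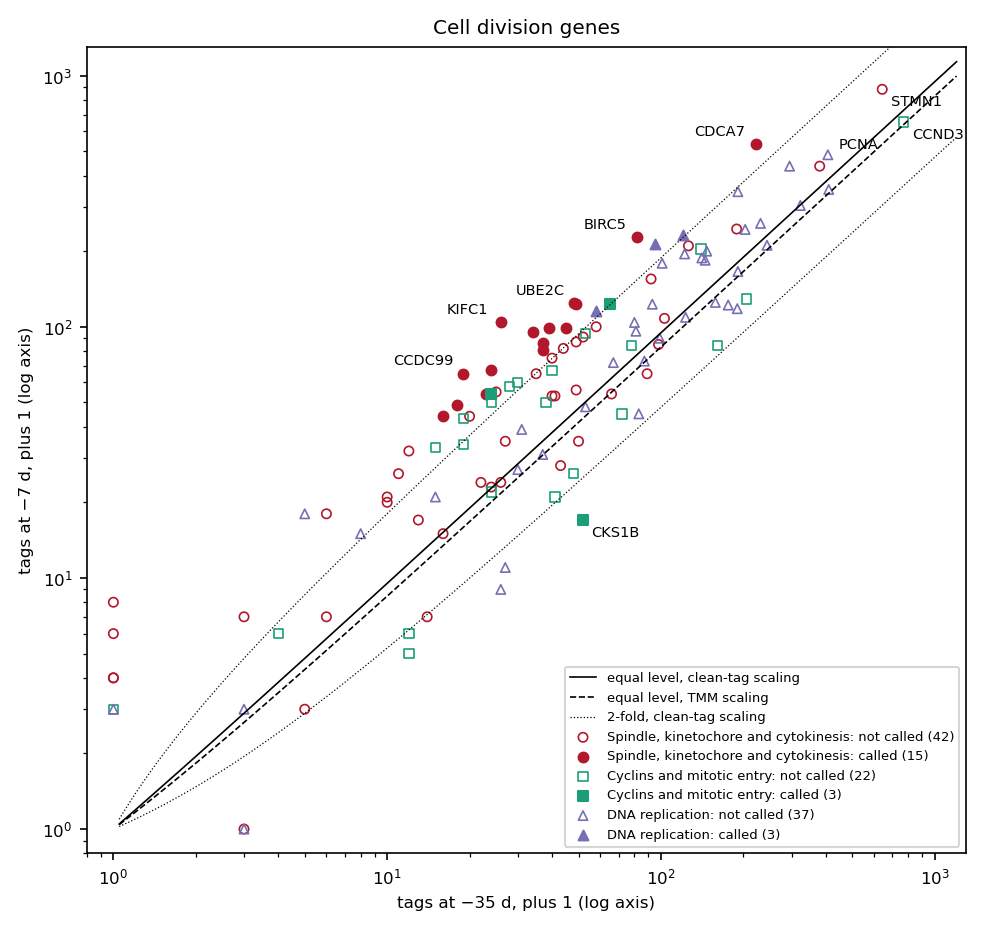
Tags at −7 d (y axis) against tags at −35 d (x axis), both plus 1 on log axes, for genes of spindle and cytokinesis (circles), cyclins and mitotic entry (squares) and DNA replication (triangles); filled symbols were called with clean-tag scaling, and lines mark equal levels and 2-fold differences. The 15 called genes of the spindle list, such as KIFC1 (25 and 103 tags), lie above the upper 2-fold line. CKS1B (51 and 16 tags) is the one called gene below the lower line.

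Of 71 lysosomal genes 14 fell under both scalings (18 lower with clean tags) and none rose, against 6.45% of all genes called lower with clean tags and 3.9% with both. For 40 of the 71 genes, or 56.3%, the interval lay inside a 2-fold difference, against 44.5% of all genes, which were not matched to the list by level. The sphingolipid activator PSAP had 383 and 96 tags, a log2 ratio of −1.92 (−2.25 to −1.59), and acid lipase (LIPA) 470 and 134 (−1.73). Cathepsins S, C, D, F and K (CTSS, CTSC, CTSD, CTSF, CTSK) fell with log2 ratios of −1.52, −1.38, −1.27, −1.45 and −1.22, and cathepsin B (CTSB), the most abundant of them, was lower with clean tags only (672 and 298 TPM). CTSH and CTSZ had ratios of −0.06 and 0.26. Subunits of the proton pump ATP6V0C, ATP6V0B, ATP6V1B1 and ATP6V1C1 fell, from 32, 60, 53 and 26 tags to 5, 18, 13 and 0. The membrane protein LAMP1 had 425 and 259 TPM and the cholesterol carrier NPC2 had 528 and 850 TPM, and neither was called. With the assumed coefficient of variation of 0.2, ATP6V1C1 was the 1 gene of the list called.

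Some markers of macrophages and T cells were lower too, and their part in the lysosomal result was not tested. Of 12 macrophage markers 4 fell (33.3%, against 3.9% of all genes) and none rose. The 4 were CD68 (35 and 5 tags), CD163 (46 and 11), VSIG4 (62 and 20) and the growth factor receptor CSF1R (308 and 126). C1QA and C1QB, complement genes of macrophages, had 585 and 620 tags at −35 d and 527 and 555 at −7 d, and the summed level of the list was 413 and 300 TPM. Of 21 T cell markers 4 fell, CD3G (237 and 78 tags), CD8B (103 and 33), LCK (99 and 32) and TRAT1 (44 and 11), while CD3E had 287 and 248, and the sum was 376 and 236 TPM. None of 11 B cell and plasma cell markers was called. The immunoglobulin light chain gene IGLL1 had 23747 and 21805 tags, and the joining chain IGJ had 1673 and 836 (log2 ratio −0.92). Of 8 neutrophil markers PGLYRP1 rose and MMP9 fell (31 and 5 tags), and the calgranulin genes S100A8 and S100A9 had 48 and 44 tags at −35 d and 22 and 21 at −7 d.

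Complement genes were lower at −7 d in 10 of 27 cases with clean tags (37.0%, against 6.45% of all genes). Under both scalings 7 of them fell (25.9%, against 3.9%), and 1 gene rose (3.70%, against 2.62%). Complement factor I (CFI), a protease that cuts C3b and C4b, had 900 and 137 tags, a log2 ratio of −2.64 (−2.91 to −2.37). C3, the central component, fell from 241 to 64.9 TPM (−1.89), and C2, MASP1, the lectin FCN2 and VSIG4 fell too. C8G, a lipocalin of the terminal complex, rose from 70.3 to 168 TPM (1.26), while C1S (1217 and 1163 tags) and the inhibitor SERPING1 (3412 and 2339) were not called.

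Of 22 genes of NADPH oxidase and phagocytic receptors, 4 fell (18.2%, against 3.9% of all genes). A further 3 were lower with clean tags only, and 1 rose (4.55%, against 2.62%). The subunits CYBB and CYBA had 145 and 247 tags at −35 d and 36 and 80 at −7 d (log2 ratios −1.93 and −1.55). TREM2, a lipid receptor of macrophages, had 69 and 24 tags. The exception was the gene listed as FCGR2 (FCGR2B in RefSeq, an Fc receptor for IgG), with 3015 and 15031 tags, a log2 ratio of 2.40 (2.34 to 2.46). It was the gene with the largest gain in TPM after PAEP, CSN2, CSN1S1 and CSN3, and it took the summed level of the list from 1265 to 3103 TPM. Whether its tag also matches another abundant transcript could not be checked without transcript sequences. The related receptors FCGR1A, FCGR3A and FCER1G had 18, 84 and 343 tags at −35 d and 6, 57 and 187 at −7 d.

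Of 37 chemokines and receptors 5 fell (13.5%, against 3.9% of all genes called lower under both scalings) and none rose. CXCL16, CXCL12, CCL21 and CXCL13, ligands that draw lymphocytes, had log2 ratios of −1.47, −1.21, −1.29 and −1.58, CCL28 had 17 and 0 tags, and the fractalkine receptor CX3CR1 was lower with clean tags only (1056 and 438 tags). CCL2, which draws monocytes, had 323 and 417 tags and was not called. Of 50 interleukins, TNF family members and receptors 5 fell (10%) and none rose, among them the IL-6 family receptors IL6R (41 and 10 tags), IL6ST (91 and 33) and OSMR (159 and 60). The cytokines IL6, IL10, IL2 and IL1B had at most 2 tags in either library. Of 31 interferon response genes IFI6 and LGALS3BP fell (log2 ratios −1.42 and −2.44) and none rose, a share of 6.45%. Of 29 pattern receptor genes LBP fell (172 and 41 tags), a share of 3.45% that was no higher than that of all genes, and TLR2 and BPI were called higher with TMM only.

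The list of 14 genes of MHC class II presentation also held CD1E, a CD1 family gene that is not of class II. Under both scalings 3 of the 14 fell, CTSS, CD1E and HLA-DMB (21.4%, against 3.9% of all genes). A further 3 were lower with clean tags only, and 2 rose (14.3%, against 2.62%). HLA-DRA, the alpha chain of DR, had 4917 and 2312 tags (log2 ratio −1.01) and was lower with clean tags only, and the invariant chain CD74 had 9581 and 5586 and was not called. The DQ chains went both ways: BOLA-DQB had 3 and 78 tags, HLA-DQA1 had 18 and 64 and rose, and BOLA-DQA2 had 23 and 3 and was lower with clean tags only. DQ genes are duplicated and differ among cattle, and the authors left out tags of several genes, so the split among DQ genes is uncertain. Among 18 class I genes none was called under both scalings, TAP1 being lower with clean tags only (48 and 14 tags) and PSMB10 higher with TMM only.

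Connective tissue genes were read against the 3.9% of all genes called lower under both scalings. Of 41 matrix glycoproteins and proteoglycans 6 fell (14.6%) and none rose. Matrix Gla protein (MGP), an inhibitor of calcification, had 5450 and 1622 tags, a log2 ratio of −1.67 (−1.75 to −1.59). SPON2, TNXB, THBS2 and biglycan (BGN) fell with log2 ratios of −2.35, −2.60, −2.27 and −1.26, and THBS4 had 39 and 2 tags. SPARC and IGFBP7, the most abundant members, had 10598 and 10787 and 10289 and 14150 tags, and decorin (DCN) had 7102 and 3741 (−0.84). Of 16 collagens COL8A1 was called higher with TMM only and COL6A2 and the hemidesmosomal COL17A1 fell (590 and 210, and 545 and 176 tags), while COL1A1 and COL3A1 had 2372 and 2415 TPM at −35 d and 2072 and 1829 TPM at −7 d (log2 ratios −0.20 and −0.40). Of 26 genes of collagen processing and elastic fibres 3 fell (11.5%), namely MFAP4, FBN1 and PCOLCE (207 and 25, 165 and 42, and 816 and 299 tags).

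Of 21 matrix proteases and inhibitors 6 fell (28.6%) and none rose. The gelatinase MMP2 had 261 and 76 tags (log2 ratio −1.70, −2.09 to −1.33), and the membrane-type protease MMP14, which activates it, 33 and 4. MMP9, MMP19 and tissue plasminogen activator (PLAT) fell, as did MMP7 (32 and 2 tags), while the inhibitors TIMP1, TIMP2 and TIMP3 had 312, 1412 and 422 tags at −35 d and 150, 842 and 261 at −7 d and were not called. Of 16 integrins ITGB1, ITGB2 and ITGB5 fell (log2 ratios −1.42, −1.44 and −1.20) and ITGB6 had 15 and 0 tags, while ITGA6, a laminin receptor of epithelium, had 290 and 273. With the assumed coefficient of variation of 0.2, none of the protease or integrin genes was called, nor any chemokine, interleukin or interferon response gene. None of 9 basement membrane genes was called.

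Markers of fibroblasts, endothelium and fat cells held no gene called under both scalings. Of the myoepithelial and smooth muscle markers 12.5% fell and 6.25% rose, against 3.9% and 2.62% of all genes. The part of these markers in the matrix results was not tested. None of 12 fibroblast markers was called under both scalings, FBLN1 being lower with clean tags only, and their median was −0.60 and their sum 8664 and 6417 TPM. None of 18 endothelial markers was called with clean tags (493 and 511 TPM), and ROBO4 was called higher with TMM. Of 14 adipocyte markers CFD and PLIN1 were lower with clean tags only (447 and 329 TPM), and adiponectin (ADIPOQ) had 30 and 27 tags. Of 16 myoepithelial and smooth muscle markers, the basal keratin KRT5 and LMOD1 fell (945 and 230, and 179 and 69 tags), the smooth muscle actin ACTG2 rose (132 and 332), and the sum was 1412 and 1018 TPM.

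**Figure D5:**
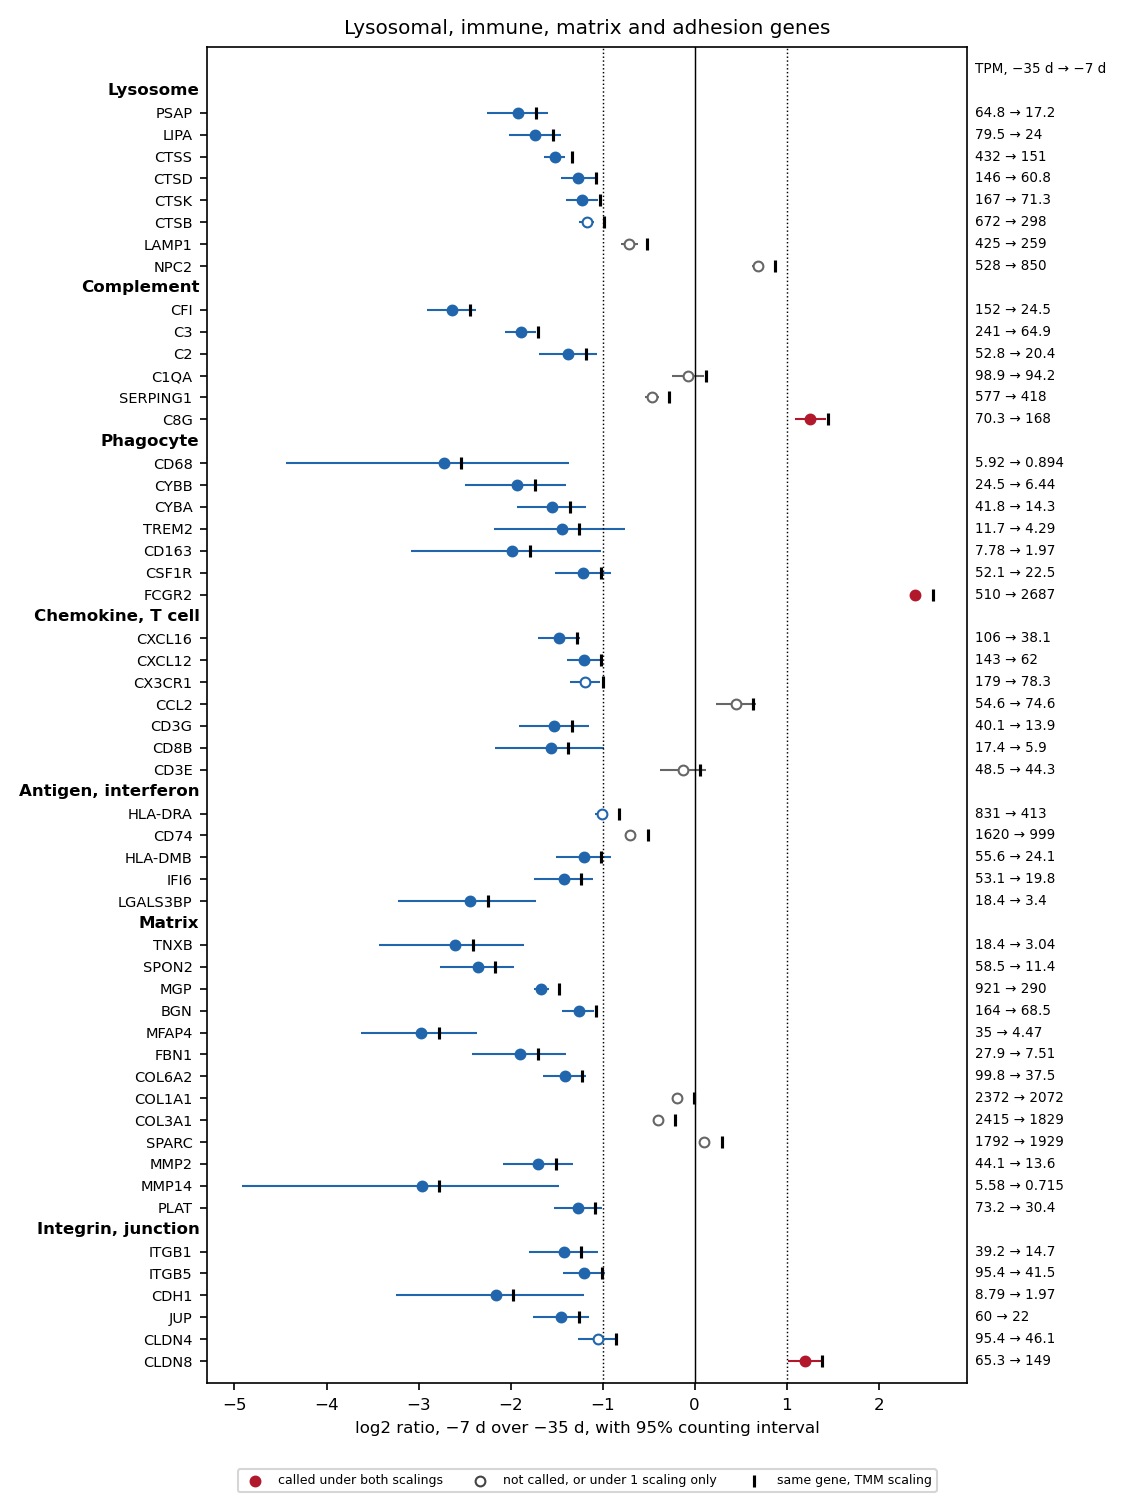
Log2 ratio of −7 d over −35 d (x axis) of lysosomal, immune, matrix and adhesion genes (y axis), with 95% counting intervals as lines and the TPM of both libraries at the right; filled points were called under both scalings (red higher, blue lower), open points were not, and black ticks give the ratio under TMM. Blue open points were called with clean tags only. Most points lie left of 0, with FCGR2 (2.40), C8G (1.26) and CLDN8 (1.20) as called genes to the right.

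Epithelial genes did not move as 1 group. Of 17 luminal markers 1 rose (5.88%, against 2.62% of all genes) and 2 fell (11.8%, against 3.9%). KIT, a receptor of luminal progenitors, rose (304 and 667 tags), and CDH1 and ELF3 fell (52 and 11, and 252 and 72). CLDN4 and MUC1 were lower with clean tags only. The list's median was −0.76 and its sum 3119 and 2261 TPM. ELF5, a factor of alveolar differentiation, had 1604 and 1974 tags, a log2 ratio of 0.38 (0.28 to 0.48), and EPCAM had 2944 and 1639 (−0.76, −0.85 to −0.68), neither called. Of 41 junction genes 2 rose (4.88%, against 2.62% of all genes) and 3 fell (7.32%, against 3.9%). The claudin CLDN8 and desmoglein DSG1 rose (386 and 836, and 12 and 43 tags), and CDH1, plakoglobin (JUP, 355 and 123) and CLDN11 (31 and 2) fell. Of 43 ion and water transport genes 2 rose (4.65%, against 2.62% of all genes) and 1 fell (2.33%, against 3.9%). The aquaglyceroporin AQP3 rose from 35 to 250 tags, a log2 ratio of 2.92 (2.40 to 3.47), and the bicarbonate transporter SLC4A10 from 22 to 108 (2.38). SLC26A2 had 17 and 0 tags.

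Signalling genes were mostly below the limits of a call. Of 14 hormone receptors and lactogenic signalling genes none was called under both scalings, and STAT5A and the progesterone receptor PGR had 39 and 10 tags at −35 d and 40 and 7 at −7 d. IGFBP4, which binds insulin-like growth factors, fell among 12 genes of that axis (2158 and 684 tags, log2 ratio −1.58). PIK3R1 fell among 22 AKT and mTOR genes (115 and 47 tags), and AKT1 was lower with clean tags only (130 and 57). In Wnt signalling the agonist RSPO1 rose (29 and 130 tags, 2.24) and WIF1, a Wnt inhibitor, had 3 and 20 tags, while the antagonist SFRP1 (1078 and 211 tags, −2.27) and beta-catenin (CTNNB1, 341 and 128 tags) fell. TGIF1 fell among 29 genes of TGF-beta, activin and BMP signalling (339 and 131 tags). Of 30 apoptosis genes BOK fell (125 and 49 tags), and the survival factor MCL1 had 833 and 401 tags and was not called.

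Of 48 antioxidant and metal-binding genes 3 rose (6.25%, against 2.62% of all genes) and 1 fell (2.08%, against 3.9%). Those that rose were the glutathione transferase GSTM3 (209 and 567 tags), the mitochondrial peroxiredoxin PRDX3 (1003 and 2185) and glutathione synthetase (GSS, 48 and 122). SOD3 had 26 and 2 tags. SOD2, GSTP1 and the regulator NFE2L2 were lower with clean tags only, with log2 ratios of −1.18, −1.03 and −1.14, and the ferritin heavy chain FTH1, the most abundant member, had 43950 and 30877 tags (−0.43).

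The genes furthest from 1 in either direction held several outside these groups. The serpin SERPINA3-3 had 555 and 12 tags, a log2 ratio of −5.45 (−6.41 to −4.63), the lowest of any called gene with over 3 tags in both libraries. CHI3L1, a chitinase-like protein of macrophages and involuting mammary gland, had 370 and 27 tags (−3.70), and CYP11A1, which cuts the side chain of cholesterol, 213 and 24 (−3.07). The prostaglandin-degrading enzyme HPGD had 67 and 4 tags, and the adhesion molecule ALCAM 60 and 6. The adhesion molecule VCAM1 was listed under 2 accessions, of which 1 fell (37 and 4 tags) and the other was not called (206 and 237 tags). Upward, MFSD2A, a lysophospholipid carrier, had 33 and 288 tags (3.21) and WIPI1 of autophagy 36 and 259 (2.93). Among called genes, 4 had no tags at −35 d, namely TMEM126A (29 at −7 d), KLRJ1 (17), TMEM88B (17) and GFRA3 (12), and 21 had none at −7 d, led by SLC25A48 (32 at −35 d), RUNDC3B (28), ATP6V1C1 (26), LOC512602 (21) and GPR183 (20). Zero tags were assigned where a library's table lacked the gene, so some tags may have gone uncounted.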

How the data were processed

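Per the labels and the study's methods, tissue was pooled by time point and tag libraries were sequenced on an Illumina instrument. The authors removed adaptors, tags with unknown bases or wrong length and 1-copy tags, and matched clean tags to UMD 3.1 transcripts with at most 1 mismatch, without multi-gene tags. An aligner is not given in the sources used here. The deposited counts are copies of each tag and unambiguous tags per gene. The deposited TPM values were made by the authors from these tags and the clean tag total. Recomputed values differed from them by at most 0.0050 TPM.

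Tables were joined by accession. The Audic-Claverie test was two-sided (the smaller tail doubled), and 0 TPM was taken as 0.01 TPM. TMM factors were computed over 3 libraries. Exact Clopper-Pearson intervals were used. No model with residual degrees of freedom could be fitted. Scripts were tested on simulated data. Of 1526 symbols written into the 65 lists, 1063 were found, and lists overlap. Named genes were, per list, up to 4 called genes of each direction and the 3 most abundant, and over all genes the 15 highest and 15 lowest ratios, the 10 largest TPM gains and losses and up to 5 genes with 0 tags in 1 library. Others were named after their values were seen. The comparison, lists and tests were chosen with earlier results of these data known. Alternatives were other scalings, filters, thresholds and tests. Names were matched for 7905 accessions to RefSeq (ARS-UCD2.0, names only). A summary of mapping classes was not used, and some genes that the rule names are not reported here. Software comprised Python 3.11.15 (scipy 1.17.1, pandas 2.3.3, matplotlib 3.10.9) and R 4.3.3 (edgeR 4.0.16, DESeq2 1.42.0 for size factors only).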

Additional observations from a re-analysis of the deposited data

How the results depend on the processing

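With 1 library per time point no library could be left out. No paired analysis was possible because each time point had 1 library. The count of 813 called genes stayed within 1.5 times under TMM (728), DESeq2 size factors (726), totals without the genes over 1% of a library (744), a minimum mean of 5 TPM (707), Fisher's exact test (799) and 0.5 tags added (805). The split moved with the scaling: 378 genes were called higher and 350 lower with TMM, and 378 and 348 with DESeq2 size factors, against 235 and 578. A 3-fold threshold left 317 genes, 97 higher and 220 lower. When a biological coefficient of variation of 0.2 was assumed, the exact test of edgeR called 54, 27 in each direction, and with 0.4 it called 3, of which 2 were higher and 1 lower. The true variation among cows was not measured, so how many calls would hold in replicates is unknown. Of 354 named genes with over 3 tags in both libraries, 46 calls were lost and 5 gained with TMM. With DESeq2 size factors 47 were lost and 5 gained, and without the most abundant genes 17 were lost and 1 gained. With a coefficient of variation of 0.2, 173 were lost. No call could change direction, since the scalings shifted log2 ratios by at most 0.193 and the assumed variation left the ratios as they were. Of 65 list medians, 12 changed sign with TMM or DESeq2 size factors and 5 without the most abundant genes, 4 of 64 did with a minimum mean of 5 TPM, and none did with 2 tags added.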

Other observations

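Of the 813 called genes, 566 belonged to none of the 65 lists. The groups in both paragraphs were formed after the values were seen, so they are descriptions only. The trefoil peptide TFF3, a secreted protein of mucous epithelia, had 1481 and 5693 tags, a log2 ratio of 2.02 (1.94 to 2.11). Enzymes of amino acid metabolism were among the genes that rose: PHGDH, the first step of serine synthesis (113 and 246 tags), PYCR1, the last step of proline synthesis (52 and 123), AADAT (35 and 89), IVD of leucine breakdown (31 and 71) and PCCB of propionate metabolism (183 and 392). Neighbouring enzymes of the same paths, PSAT1, PSPH, BCAT2 and PCCA, had 98, 33, 57 and 87 tags at −35 d and 137, 35, 44 and 109 at −7 d and were not called. The lactate and ketone body carrier SLC16A1 had 146 and 459 tags (log2 ratio 1.73), the copper transporter SLC31A2 had 280 and 840 (1.67), the RNA-binding protein KHDRBS3 had 115 and 510 (2.23), and the vasoactive intestinal peptide receptor VIPR1 had 44 and 170 (2.03).

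Among genes of prostaglandin metabolism 3 fell and others were not called. The prostaglandin D synthase PTGDS had 4613 and 1737 tags (log2 ratio −1.33), the prostaglandin E synthase PTGES had 167 and 34 (−2.22) and HPGD had 67 and 4, while the cyclooxygenases PTGS1 and PTGS2 had 37 and 21 tags at −35 d and 47 and 6 at −7 d and were not called. The heparin-binding growth factors pleiotrophin (PTN) and midkine (MDK), which form 1 family, had 416 and 542 tags at −35 d and 97 and 123 at −7 d, with log2 ratios of −2.02 and −2.06. The angiopoietin-like genes ANGPTL1, ANGPTL2 and ANGPTL4 fell with log2 ratios of −1.71, −1.46 and −1.68. The peptide gene GRP had 800 and 192 tags, the lipocalin APOD 2661 and 795, and the glucose-regulated TXNIP 4922 and 1745. The intermediate filament vimentin (VIM) of mesenchymal cells and leukocytes had 5151 and 1834 tags (−1.41). The macrophage-associated genes GPNMB and MPEG1 had 190 and 806 tags at −35 d and 40 and 285 at −7 d.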
